A study of Danio rerio with 2 samples.

Results

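The extracellular matrix genes described here are the zebrafish genes whose symbols name a collagen chain, a laminin chain, a fibronectin, tenascin C or R, a lectican (versican, aggrecan, brevican, neurocan) or a hyaluronan link protein. Their symbols were matched against the list of features, and 83 of 27771 gene identifiers were found, with 81 different symbols. Of these, 72 had at least 50 unique molecular identifiers (UMIs, each a tag for 1 captured RNA molecule) over 6 classes of cells, and 42 had at least 500. The classes were floor plate, progenitor, neuron, oligodendrocyte lineage, mesenchyme and skin. Just inside the limit of 50 lay *col28a1b* with 63, *hapln4* with 60 and *col28a2b* with 53 UMIs, and just outside it *hapln2* with 45, *col8a2* with 42 and *col18a1b* with 42.

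Single cell RNA-seq was done on fluorescent cells that were sorted from dissociated trunks of the line *Tg(olig2:dsred)*, outcrossed to wild type. There was 1 library of 28 hours post fertilization (hpf) and 1 of 60 hpf, each from pooled trunks, and the labels name no treatment. In this line a regulatory element of *olig2* drives dsRed, which marks the motor neuron and oligodendrocyte progenitors of the ventral spinal cord (pMN cells) and lasts for some time in their progeny, so a sorted cell need not express *olig2* itself. *olig2* UMIs were found in 70.4% of the kept cells at 28 hpf and in 40.2% at 60 hpf, and its level per 10000 UMIs was 31.1 and 26.1 in progenitor-like, 48.3 in oligodendrocyte lineage-like and 0.202 in mesenchyme-like cells.

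The matrix around cells is built in layers. Laminins and collagen IV form the basement membrane sheet, fibrillar collagens form cables whose surface carries collagens IX, XII and XIV, and collagens VII and XVII anchor epithelia to the sheet beneath. In the central nervous system, lecticans bind the sugar polymer hyaluronan, a bond that link proteins hold fast, and tenascin R joins lecticans to one another. Fibronectin and tenascin C are laid down around moving and growing cells.

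Cells with at least 1000 genes numbered 8390 at 28 hpf and 5517 at 60 hpf, and the median cell had 7376 and 6809 UMIs. Matrix genes gave 0.204% and 0.176% of their UMIs. Classes were rebuilt by clustering without the matrix genes, and a name stands for resemblance to a marker list. At 28 and 60 hpf, 711 and 61 cells were floor plate-like, 2662 and 719 progenitor-like, 3604 and 3467 neuron-like, 0 and 353 oligodendrocyte lineage-like, 14 and 114 mesenchyme-like, and 12 and 153 skin-like. The neuron-like class includes neuronal precursor-like cells, 1468 at 28 hpf and 314 at 60 hpf. A group with fewer than 20 cells was not compared, which left mesenchyme and skin at 60 hpf only. The level of a gene in a group is its share of the UMIs of that group, given per 10000, with the exact Poisson 95% interval in brackets. These intervals cover counting error only. With 1 library per stage no test was possible, and a difference between stages cannot be told apart from a difference between libraries. A gene is called higher or lower in a comparison where its levels differed by 2-fold or more and one of the groups had 20 or more of its UMIs. The share of all genes called by the same rule is given as the background. Erythroid-like cells, which should lack these genes, held 3.81% of the matrix level of the 6 classes at 28 hpf (1.05 against 27.7 UMIs per 10000) and 2.09% at 60 hpf (0.436 against 20.9). Their median depth was 33240.5 UMIs at 28 hpf and 31210.5 at 60 hpf, far above that of the median cell. At such unlike depth their shares of UMIs, thinned or not, cannot settle the background of shallower cells.

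Matrix expression was spread unevenly over the classes. The summed level of the 83 genes was 86.5 [85.8, 87.3] in floor plate-like, 32.6 [32.3, 32.8] in progenitor-like and 13.7 [13.5, 13.8] in neuron-like cells at 28 hpf. At 60 hpf it was 90.0 [87.5, 92.6], 31.3 [30.9, 31.8] and 8.90 [8.79, 9.0] in the same order. Oligodendrocyte lineage-like cells had 19.6 [19.1, 20.1], mesenchyme-like cells 142 [140, 144] and skin-like cells 81.9 [80.9, 83.0] at 60 hpf. Floor plate thus stood above progenitor and progenitor above neuron in both libraries, and none of these intervals overlapped. At 28 hpf cluster 6, with 28.2% predicted doublets, gave 26384 of the 42378 matrix UMIs of neuron-like cells. At 60 hpf it gave 1042 of 28594. The neuron-like class levels include this cluster, so 13.7 and 8.90 are not read as a change between stages.

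The make-up of the matrix also differed between classes. Fibrillar collagens gave 32.9% of all matrix UMIs, link proteins 14.8%, the collagens that coat fibrils 12.8% and collagen IV 11%. Laminins gave 5.62%, tenascins 3.60%, lecticans 1.73%, fibronectins 1.30% and collagen VI 0.37%. In mesenchyme-like cells 67.1% of matrix UMIs came from fibrillar collagens. In oligodendrocyte lineage-like cells link proteins gave 47.6%, tenascins 20.5% and lecticans 16.4%, and fibrillar collagens only 6.87%. Of the 72 genes, 46 had their highest level in floor plate, 20 in neuron and 5 in progenitor at 28 hpf, and 1 had no UMI. Of the 18504 genes with as many UMIs, 31.1% were highest in floor plate, 47.7% in neuron and 21.1% in progenitor. At 60 hpf, 29 were highest in mesenchyme, 16 in floor plate, 16 in skin, 6 in neuron, 3 in the oligodendrocyte lineage and 2 in progenitor, against 14%, 14.3%, 14.2%, 28.7%, 21.7% and 7.04% of those genes.

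**Figure D1:**
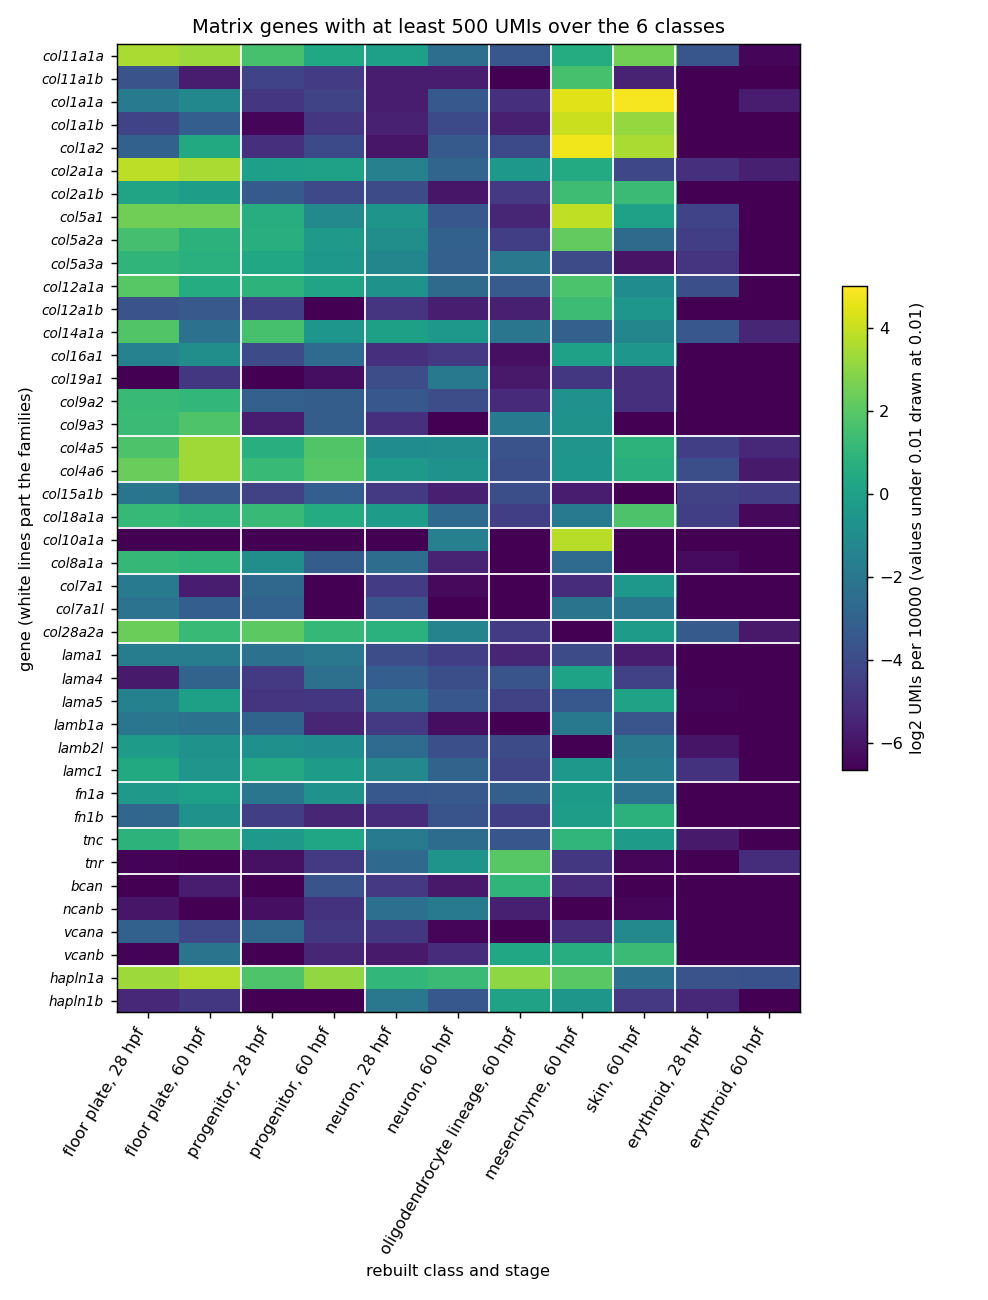
Levels of the 42 matrix genes with at least 500 UMIs (rows, by family) in each class and library (columns), as log2 UMIs per 10000, with values under 0.01 drawn at 0.01. *col2a1a* is brightest in the floor plate columns, *col1a1a* in mesenchyme and skin, *tnr* and *bcan* in the oligodendrocyte lineage, and the erythroid columns are dark throughout.

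Floor plate-like cells carried a cartilage-type set of collagens. At 28 hpf, 24 of 45 matrix genes tested were higher and 0 lower than in progenitor-like cells, against 8.25% and 6.03% of all genes, and the median log2 ratio was 1.07 against 0.09 for all genes. *col2a1a* (ENSDARG00000069093), the chain of collagen II, had 14.5 [14.2, 14.9] UMIs per 10000 in floor plate-like and 0.939 [0.898, 0.980] in progenitor-like cells. *col9a3*, a chain of the collagen IX that coats collagen II fibrils, had 2.42 [2.29, 2.55] against 0.0192 [0.0138, 0.0259]. The log2 ratio was 7.64 [6.40, 9.28] for *col9a1b*, 4.27 [4.07, 4.47] for *col9a2*, both of collagen IX, and 3.51 [3.28, 3.74] for *col2a1b*, the second collagen II gene. The remaining collagen IX gene, *col9a1a*, had 11 UMIs in floor plate-like cells, at 0.0198 against 0.0247. The summed level of 6 notochord markers was 13.7 in floor plate-like and 3.37 in progenitor-like cells at 28 hpf, and their part was not tested. At 60 hpf, 20 of 38 genes were higher and 4 lower, against 14.9% and 12% of all genes, with *col9a3* at 3.49 [3.01, 4.03] against 0.107 [0.0825, 0.137] and *col8a1a*, a network-forming collagen, at 1.99 [1.63, 2.41] against 0.109 [0.0840, 0.139]. *col1a2* was also higher there, at 1.35 against 0.0614, but 84.7% of its 72 UMIs came from 5 of the 61 cells. *col14a1a*, a fibril-coating collagen, was lower, at 0.206 [0.103, 0.369] against 0.685 [0.620, 0.756].

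Most of this set was higher in the medial than in the lateral cells. The 28 hpf floor plate held 109 medial-like cells, which had *shha* among their leading genes, and 602 lateral-like cells, and 12.8% and 0% of them were predicted doublets. In a comparison added after the data were seen, 21 of 40 matrix genes were higher and 3 lower in the medial cells, against 9.46% and 6.59% of all genes. *col2a1a* had 54.0 UMIs per 10000 in medial-like and 2.28 in lateral-like cells, a log2 ratio of 4.57 [4.47, 4.67]. *col9a1b* had 254 UMIs in the medial cells and 0 in the lateral cells, which makes it at least 273-fold higher against a floor of 3 UMIs. The summed level of the notochord markers was 24.5 in medial-like and 10.4 in lateral-like cells, with 1 of 6 at 0 in each, and 6 of the 109 medial cells held at least 3 of them. That of the 8 erythroid markers was 49.9 and 8.69. Their part in the contrast was not tested. *col9a3* was 193-fold, *lama5* (a laminin alpha chain) 44.1-fold and *col11a2* 25.8-fold higher. Other genes were shared more evenly. *col4a6* had 4.38 in medial-like and 5.21 in lateral-like cells, and *col14a1a* was lower in the medial cells, at 1.69 against 4.15.

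Between the libraries, medial floor plate-like cells had less of this set and more collagen IV at 60 hpf. In the 51 medial-like cells of 60 hpf, 4 of 35 genes were higher and 16 lower than at 28 hpf, against 11.8% and 12.4% of all genes. *col2a1a* had 54.0 at 28 hpf and 12.6 at 60 hpf, a log2 ratio of -2.11 [-2.23, -1.99], and *col2a1b* 4.05 and 0.974. *col9a2* had 7.95 and 2.22, and *col9a1b* went from 254 UMIs to 0, at least 31.0-fold lower. *col4a5* had 2.54 and 10.2, and *col4a6* 4.38 and 10.5, log2 ratios of 2.0 [1.80, 2.21] and 1.26 [1.08, 1.43]. *tnc* was higher too, at 1.51 and 3.05. Predicted doublets made up 13.7% of the 60 hpf group, and their part in these values was not tested.

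**Figure D2:**
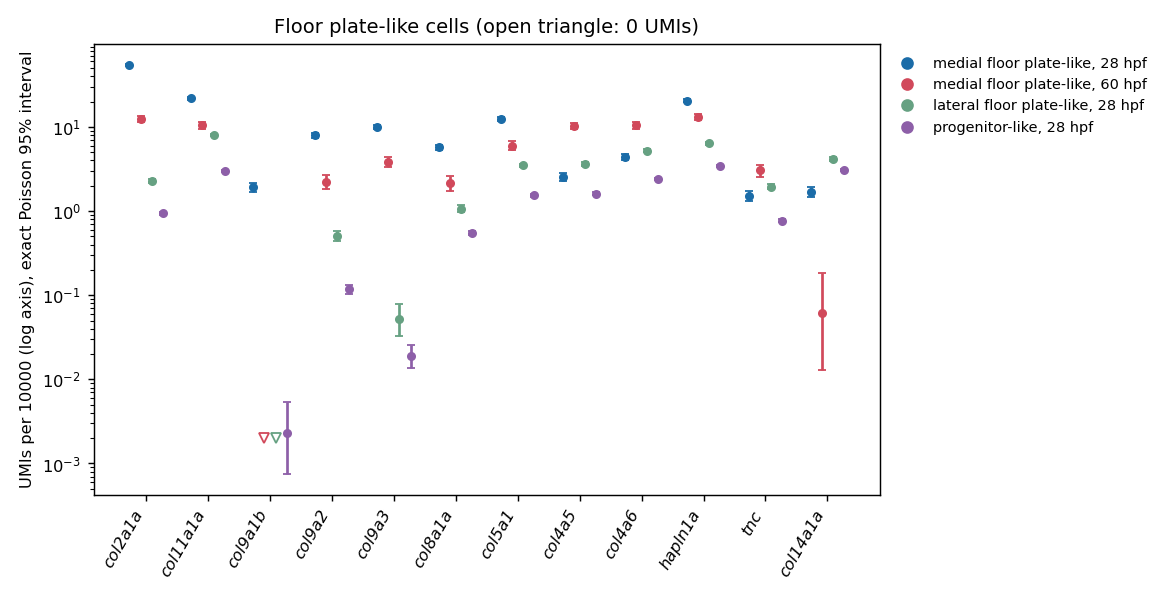
UMIs per 10000 (log axis) of 12 matrix genes in medial floor plate-like cells at 28 and 60 hpf, lateral floor plate-like cells at 28 hpf and progenitor-like cells at 28 hpf. Points are levels, bars exact Poisson 95% intervals and open triangles 0 UMIs. The collagen II and IX genes are highest in medial cells at 28 hpf, and *col4a5* and *col4a6* are highest in medial cells at 60 hpf.

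Progenitor-like cells expressed a basement membrane set, with its collagen IV genes at levels below those of floor plate. At 28 hpf *col4a6* (ENSDARG00000052061), a collagen IV chain, had 2.39 [2.33, 2.46] and *col4a5* 1.62 [1.56, 1.67] UMIs per 10000. *lamc1*, the laminin gamma chain of most basement membranes, had 1.29 [1.25, 1.34], and *col18a1a*, a collagen with heparan sulfate chains, 2.41 [2.34, 2.48]. In floor plate-like cells *col4a6* had 5.01 and *col4a5* 3.36. The *lamc1* intervals of these 2 classes overlapped, and *col18a1a* had its highest level in progenitor-like cells. *col28a2a*, a chain of collagen XXVIII, had 4.23 [4.14, 4.31] in progenitor-like and 5.26 [5.07, 5.45] in floor plate-like cells. After each cell was thinned to 2000 UMIs, *col28a2a* was found in 48.7% of 2650 progenitor-like cells and in 1.11% of 722 erythroid-like cells, which left out 12 and 2 shallower cells. Without thinning the shares were 80.5% and 12.2%, at median depths of 7056 and 33241 UMIs.

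Cycling progenitors had more of a few matrix genes. At 28 hpf, 7 of 40 genes were higher and 2 lower in cycling progenitor-like cells than in pMN progenitor-like cells, against 6.61% and 2.89% of all genes, with a median log2 ratio of 0.33 against 0.01 for all genes. *col11a1a*, a minor fibrillar chain, had 4.14 and 1.65, and *col9a2* 0.183 and 0.0376. The pMN progenitor-like cells fell into 2 clusters, and cluster 14 was led by posterior *hox13* genes. It had 10 of 36 matrix genes higher and 2 lower than cluster 2, against 7.87% and 4.44% of all genes. *col5a2a* had 2.78 and 1.05, *lamb1a* 0.315 and 0.122, *tnc* 1.05 and 0.420, and *col5a1* 2.21 and 0.986. *fn1a*, 1 of the zebrafish fibronectins, was lower in the posterior-type cluster, at 0.0371 [0.0160, 0.0731] against 0.199. These 2 comparisons were added after the data were seen. The summed level of 7 lateral floor plate markers was 43.5 in the cycling cells, 23.6 in cluster 2 and 31.6 in cluster 14. That of 9 medial floor plate markers was 6.16, 3.28 and 5.71, and that of 6 notochord markers 4.27, 1.42 and 4.94. Their part in the 2 contrasts was not tested.

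Neuron-like cells had a reduced matrix level and a few genes of their own. At 28 hpf, 12 of 58 genes were higher and 24 lower than in progenitor-like cells, against 26.3% and 16.6% of all genes, with a median log2 ratio of -0.61 against 0.19 for all genes. At 60 hpf, 14 of 64 were higher and 34 lower, against 28.1% and 19.6% of all genes, with medians of -1.34 and 0.25. The genes higher at both stages included *tnr*, *hapln1b* and *col19a1*. *tnr* (ENSDARG00000020771), tenascin R, had 0.158 [0.145, 0.173] in neuron-like and 0.0142 [0.00962, 0.0201] in progenitor-like cells at 28 hpf, and 0.642 [0.615, 0.670] and 0.0392 [0.0249, 0.0588] at 60 hpf. *ncanb*, a neurocan, had 0.189 [0.174, 0.205] and 0.0137 [0.00925, 0.0196] at 28 hpf, a log2 ratio of 3.79 [3.26, 4.37]. Among the genes at the low end, *vcana* had 0.0374 and 0.147 at 28 hpf, and *col18a1a* 0.158 and 1.46 at 60 hpf. In the neuron-like class, cluster 6 stood apart, with a median of 14119 UMIs and 28.2% predicted doublets at 28 hpf. Without that cluster, which was left out after the data were seen, 12 genes were higher and 29 lower at 28 hpf. No share of all genes is given for that count.

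Matrix levels were then followed along the motor neuron series at 28 hpf, in comparisons added after the data were seen. The summed matrix level was 26.3 [26, 26.7] in pMN progenitor-like, 9.78 [9.58, 9.99] in neuronal precursor-like and 5.88 [5.68, 6.09] in motor neuron-like cells. From progenitor to precursor, 3 of 40 genes were higher and 25 lower, against 16.3% and 21.5% of all genes. From precursor to motor neuron, 7 of 33 were higher and 12 lower, against 26.1% and 11.7%. The genes fell into groups by where along the series they were low.

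One group was low already in precursors. *col2a1a* had 0.584 in pMN progenitor-like, 0.0572 in precursor-like and 0.0401 in motor neuron-like cells. *vcana* had 0.194, 0.0110 and 0.0128, and *col11a1a* 1.65, 0.241 and 0.217. For *lamb1a* the values were 0.164, 0.0209 and 0.0237, and for *col12a1a* 1.24, 0.193 and 0.107. Erythroid-like cells of the same library, which should lack these genes, had 0.0863 for *col11a1a*, 0.0724 for *col12a1a* and 0.0296 for *col2a1a*. As shares of UMIs, the *col2a1a* level in motor neuron-like cells was near this, and the *col12a1a* level not far above. Depth was unlike, with medians of 33240.5 UMIs in erythroid-like and 7222.5 in motor neuron-like cells. In UMIs, 724 erythroid-like cells held 2567 of all matrix genes, and 702 motor neuron-like cells 3227. Shares of UMIs therefore cannot settle which low motor neuron-like levels, that of *col11a1a* included, lie above background.

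Another group was lower at both steps, and more so at the step to motor neurons. *col28a2a* had 3.91 in pMN progenitor-like, 1.96 in precursor-like and 0.248 in motor neuron-like cells, log2 ratios of -1.0 [-1.08, -0.92] and -2.98 [-3.24, -2.73] at the first and the last step. Of the precursor clusters, cluster 10 had 3.42 [3.23, 3.62] and cluster 4 had 1.06 [0.973, 1.14]. *col18a1a* had 2.28, 0.938 and 0.120, and *col5a1* 1.25, 0.546 and 0.102. Erythroid-like cells had 0.0970, 0.0448 and 0.0502 for these 3 genes, with the same limit of unlike depth. *lama4*, a laminin alpha chain, was highest in the precursors, at 0.0548, 0.212 and 0.104. The step from progenitor to precursor was a log2 ratio of 1.95 [1.51, 2.42].

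The last group was high in motor neuron-like cells. *tnr* had 0.0173, 0.0297 and 0.641 along the series, and *ncanb* 0.0152, 0.0815 and 0.716. *col19a1* is the symbol of 2 identifiers, and ENSDARG00000076163 had 0.00102, 0.00881 and 0.317. From precursor to motor neuron these genes were 21.6-fold, 8.79-fold and 36.0-fold higher. *hapln1a* (ENSDARG00000089769), a link protein gene, was lower at each step, at 3.13, 2.07 and 0.896, and by over 2-fold at the last.

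**Figure D3:**
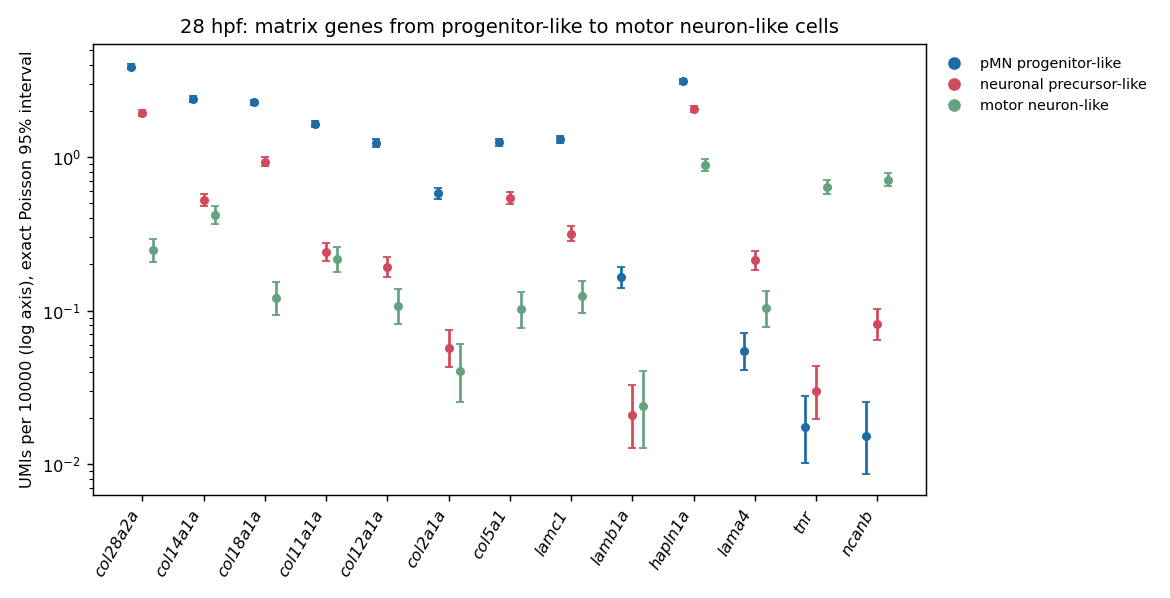
UMIs per 10000 (log axis) of 13 matrix genes in pMN progenitor-like, neuronal precursor-like and motor neuron-like cells at 28 hpf. Points are levels and bars exact Poisson 95% intervals. *col2a1a* and *col11a1a* are low from the precursors on, *col28a2a* and *col18a1a* are lower at each step, and *tnr* and *ncanb* are high in motor neurons.

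Neuron types carried different matrix genes. *hapln1b*, the second link protein 1 gene, and *lama5* marked GABAergic neuron-like cells. At 60 hpf *hapln1b* had 1.62 UMIs per 10000 in these cells and 0.00965 in motor neuron-like cells, a log2 ratio of 7.39 [6.76, 8.09]. *lama5* had 1.25 and 0.0311, a log2 ratio of 5.33 [4.93, 5.74]. At 28 hpf, GABAergic cluster 7, with 0.450% predicted doublets, had 0.948 [0.857, 1.05] for *hapln1b* and 0.597 [0.525, 0.676] for *lama5*, against 0.0237 and 0.0328 in motor neuron-like cells. Motor neuron-like cells had the opposite set at 60 hpf. *tnr* had 0.630 in motor neuron-like and 0.0179 in GABAergic neuron-like cells, and *ncanb* 0.301 and 0.0417. Over all members, 8 of 54 genes were higher and 12 lower in GABAergic neuron-like than in motor neuron-like cells at 60 hpf, against 18.9% and 14.7% of all genes, and 29 of 51 were higher and 7 lower at 28 hpf, against 22.1% and 15.2%. The GABAergic neuron-like group held cells of cluster 6 at both stages, of which 28.2% were predicted doublets at 28 hpf and 75% of 32 cells at 60 hpf. At 28 hpf cluster 6 gave 26384 of the 29396 matrix UMIs of the GABAergic neuron-like group. Cluster 7 had a summed matrix level of 7.19 [6.93, 7.45] there, against 5.88 [5.68, 6.09] in motor neuron-like cells. At 60 hpf the 32 cells of cluster 6 gave 1042 of the 1742 matrix UMIs of the group. The other main cluster there, cluster 20 with 234 cells and 3.42% predicted doublets, had a summed matrix level of 5.36, with *hapln1b* at 1.74 [1.52, 1.99] and *lama5* at 1.41 [1.21, 1.63]. Both comparisons were added after the data were seen. The motor neuron-like group of 60 hpf leaves out cluster 5, named neuron at a median log2 fold of 1.67 against 1.58 for motor neuron. Of its 866 cells at 60 hpf, 858 held at least 3 motor neuron markers.

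*col19a1* was gathered in 1 cluster of motor neuron-like cells. In cluster 13, which held 377 cells at 60 hpf, ENSDARG00000076163 had 3.34 [3.10, 3.59] UMIs per 10000 and was found in 254 cells. The other *col19a1* identifier, ENSDARG00000096073, had 0.797 [0.684, 0.925] there. In cluster 1, the largest motor neuron-like cluster with 1206 cells, they had 0.0374 and 0.0268. *ncanb* had 1.03 [0.904, 1.18] in cluster 13 and 0.199 [0.180, 0.219] in cluster 1, and *tnr* 1.29 [1.15, 1.45] and 0.50 [0.469, 0.532]. V3 neuron-like cells had *ncanb* at 0.715 at 28 hpf and 0.655 at 60 hpf.

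The *col10a1a* values came from a handful of cells. This collagen X gene, which in mammals marks hypertrophic cartilage, had 0 UMIs in the 6 classes at 28 hpf. At 60 hpf it had 1472 UMIs in 2 of 114 mesenchyme-like cells, and 1078 UMIs in 10 of 3467 neuron-like cells, 99.5% of them in 5 cells. In 6 cells of cluster 1 there were 954, and in 2 V3 neuron-like cells 122. It was found in 13 cells in all. Its class levels, 13.5 in mesenchyme and 0.335 in neuron, therefore describe few cells and not a class.

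Radial glia-like cells at 60 hpf formed 2 clusters with different matrix. Compared with the other progenitor-like cells, 10 of 34 genes were higher and 3 lower, against 12% and 7.35% of all genes. *fn1a* had 0.715 in the 613 radial glia-like cells and 0.120 in the 106 others, *col2a1a* 1.15 and 0.265, and *hapln1a* 9.36 and 4.45. *col5a2a* was lower, at 0.469 and 2.77, and *col14a1a* as well, at 0.574 and 1.36. Of the 106 others, 72 were of the posterior-type cluster 14. At 28 hpf *col5a2a* had 2.78 in that cluster and 1.05 in cluster 2. The part of cluster 14 in the radial glia contrast was not tested. The counts of this comparison moved with the clustering and with the limits on genes and UMIs, from 3 to 6 higher genes under 4 of the alternatives.

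Between the clusters the contrast was wider. The summed matrix level was 51.5 [50.4, 52.6] in cluster 22, with 179 cells, and 22.1 [21.6, 22.6] in cluster 12, with 434 cells. In this comparison, added after the data were seen, 19 of 30 genes were higher and 1 lower in cluster 22, against 16.5% and 9.62% of all genes. *col12a1a* had 3.35 and 0.162, a log2 ratio of 4.37 [3.97, 4.79]. *fn1a* had 1.93 and 0.162, *lama4* 0.526 and 0.0579, and *col5a1* 1.04 and 0.127. *hapln1a* had 16.9 [16.2, 17.5] and 5.92 [5.66, 6.18]. *col28a2a* alone was lower, at 0.805 and 2.57. The summed level of 6 notochord markers was 43.9 in cluster 22 and 1.19 in cluster 12, with 3 of the 6 at 0 in each, and that of 7 lateral floor plate markers was 67.4 and 25.9. *krt18a.1*, on the notochord list, was among the 10 leading genes of cluster 22, so that sum is not read as notochord identity. The part of cells of either kind in the contrast was not tested.

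Oligodendrocyte lineage-like cells had a neural matrix set and little collagen IV. Against progenitor-like cells of 60 hpf, 5 of 39 genes were higher and 25 lower, against 18.7% and 18.8% of all genes, with a median log2 ratio of -2.05 against 0.25 for all genes. *tnr* had 3.93 [3.71, 4.17] UMIs per 10000 in oligodendrocyte lineage-like and 0.0392 [0.0249, 0.0588] in progenitor-like cells, a log2 ratio of 6.65 [6.06, 7.31]. *bcan* (ENSDARG00000099412), the brain lectican brevican, had 1.95 [1.80, 2.12] and 0.0784 [0.0574, 0.105]. *vcanb*, a versican, had 1.23 [1.11, 1.36] and 0.0239 [0.0130, 0.0400]. *hapln1b* had 1.06 [0.948, 1.19] and 0.00682 [0.00186, 0.0175], a log2 ratio of 7.28 [5.91, 9.17]. The 4 genes were thus between 24.9-fold and 156-fold higher with intervals far apart, and all but *tnr* bind hyaluronan.

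The genes at the low end were of several families, with both collagen IV genes of the *col4a5* and *col4a6* pair among them. *col4a6* had 0.0720 [0.0446, 0.110] in oligodendrocyte lineage-like and 3.89 [3.73, 4.05] in progenitor-like cells, 54.0-fold lower. *col4a5* had 0.0788 [0.050, 0.118] and 3.63 [3.47, 3.78]. *col28a2a* had 0.0411 and 2.16, *col18a1a* 0.0446 and 1.46, and *col5a2a*, a fibrillar chain, 0.0446 and 0.795. *hapln1a* was held, at 8.22 [7.89, 8.55] and 8.66 [8.42, 8.90]. *col9a3* was on the higher side at 0.288 and 0.107, and its direction turned when the clusters were made finer and when each library was clustered alone. The summed level of 8 erythroid markers was 144 in the oligodendrocyte lineage-like and 9.02 in the progenitor-like cells, and 8.5% and 1.39% of the cells were predicted doublets. Their part in the contrast was not tested.

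Shares of cells told the same order. After thinning to 2000 UMIs, *tnr* was found in 35.2% [30.2, 40.5] of 349 oligodendrocyte lineage-like cells, 11.3% [10.3, 12.5] of 3333 neuron-like cells, 0.560% of 714 progenitor-like cells and 0.755% of 530 erythroid-like cells. The brackets here are exact binomial 95% intervals. *bcan* was found in 26.9% [22.4, 31.9], 0.240%, 1.68% and 0.189% in the same order, and *vcanb* in 21.2% [17, 25.9], 0.480%, 0.280% and 0.189%. Thinning left out 4, 134, 5 and 0 shallower cells. Without thinning the shares were 56.1%, 25.1%, 2.09% and 3.21% for *tnr*, at median depths of 7049, 5833, 6342 and 31211 UMIs. The progenitor shares of *tnr* and *vcanb* lay near those of erythroid-like cells and are read as background.

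Oligodendrocyte lineage-like and neuron-like cells at 60 hpf differed in the level of several neural matrix genes. In this comparison, added after the data were seen, 15 of 62 genes (24.2%) were higher in the oligodendrocyte lineage, against 18.8% of all genes. Lower were 21 (33.9%), against 26.1%. Both counts lay not far above the shares of all genes and are not read as a division of the matrix genes. *bcan* was 114-fold, *vcanb* 44.4-fold, *hapln1b* 11.4-fold and *tnr* 6.12-fold higher there. For *hapln1b* this holds for the pooled neuron-like class and not for each neuron type. It had 1.06 in the oligodendrocyte lineage, 1.62 in GABAergic neuron-like and 0.00965 in motor neuron-like cells. *ncanb* was lower, at 0.0206 [0.00755, 0.0448] against 0.282 [0.264, 0.301]. *col19a1* (ENSDARG00000076163) was lower as well, at 0.0171 against 0.261.

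**Figure D4:**
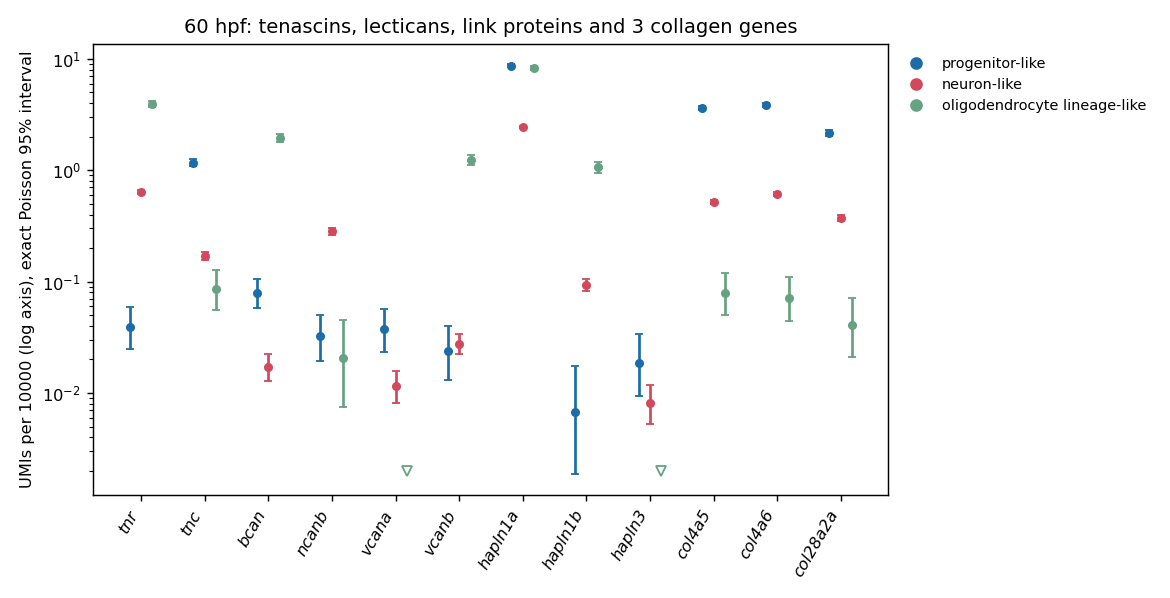
UMIs per 10000 (log axis) of 12 matrix genes in progenitor-like, neuron-like and oligodendrocyte lineage-like cells at 60 hpf, with exact Poisson 95% intervals as bars and open triangles for 0 UMIs. *tnr*, *bcan*, *vcanb* and *hapln1b* are highest in the oligodendrocyte lineage, *ncanb* in neurons, and *col4a5*, *col4a6* and *col28a2a* in progenitors.

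Mesenchyme-like cells at 60 hpf had the fibrillar collagens I and V and collagen VI. Against the 4 neural classes, 45 of 68 genes were higher and 9 lower, against 23.3% and 28.6% of all genes, with a median log2 ratio of 2.60 against -0.20 for all genes. *col1a2*, a chain of collagen I, had 26.7 [25.7, 27.7] UMIs per 10000 in mesenchyme-like cells and at most 1.35 in a neural class. *col1a1a* had 22.6 [21.7, 23.5], *col1a1b* 16.8 [16, 17.6] and *col5a1* 14.8 [14.1, 15.5]. After thinning, *col1a2* was found in 68.1% of 113 mesenchyme-like cells, with 1 cell left out, and in 0 of 530 erythroid-like cells, which allows a share of up to 0.694%.

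Collagen VI forms beaded filaments close to connective tissue cells, and its 4 described genes had their highest levels here. *col6a1* had 2.05 [1.79, 2.34] in mesenchyme-like cells and 0.00699 over the neural cells of 60 hpf, a log2 ratio of 8.20 [7.63, 8.81]. *col6a2* had 1.98 [1.72, 2.26] and 0.00265, and *col6a4a* 0.948 [0.774, 1.15] and 0.00145. *col6a3* (ENSDARG00000077139) had 112 UMIs in mesenchyme-like cells and 3 in the neural cells. At the low end were *col28a2a*, with 1 UMI in mesenchyme-like cells against a neural level of 0.627, and *lamb2l*, with 1 UMI against 0.142. *tnr* was 21.2-fold lower, and *ncanb* had 0 UMIs against a neural level of 0.225, at least 8.13-fold lower. The mesenchyme markers had a summed level of 18.2 in this class and at most 2.05 in another, with 0 of 12 at 0. The 6 notochord markers had 24.2 in this class, with 2 of 6 at 0, and between 0.79 and 19.7 in the other classes. Their part was not tested. The 8 endothelium markers had 3.70 here and between 0.02 and 0.06 in the other classes, and 9 of the 114 cells held at least 3 of them. Without the cells holding at least 3 markers of endothelium or of neurons, left out after the data were seen, 47 genes were higher and 9 lower. The share of all genes is not given for that smaller group.

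Skin-like cells were 2 unlike groups. Cluster 26, led by the fin fold genes *and1*, *and2* and *and3*, had a summed matrix level of 222 [219, 225] in 59 cells at 60 hpf. Cluster 25, led by keratins and also by *ins* and *apoa1a*, had 6.0 [5.64, 6.38] in 94 cells, of which 11 held at least 3 markers of neural crest or pigment. In a comparison added after the data were seen, 34 of 34 genes were higher in cluster 26, against 15.7% of all genes, and 0 were lower, against 26.7%. Cluster 25 gave 1028 matrix UMIs and cluster 26 gave 20652, so matrix genes met the limit on UMIs more easily in cluster 26. A gene that met it only there was pushed toward a higher call, as cluster 26 had fewer UMIs of all genes. The count of 34 is therefore not read as support beyond the summed levels. *col1a2* had 3046 UMIs in cluster 26 and 3 in cluster 25, and *col1a1a* 77.6 [75.8, 79.4] and 2.45 [2.22, 2.70] UMIs per 10000. *col17a1a*, the transmembrane collagen of hemidesmosomes, had 248 UMIs and 0, at least 152-fold higher. The skin values below are therefore those of cluster 26 for the most part.

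Against mesenchyme, 18 of 56 genes were higher in skin-like cells and 31 lower, against 21.6% and 25% of all genes. The higher genes included the anchoring collagens. *col17a1a* had 0.937 [0.824, 1.06] in skin-like cells and 0 UMIs in mesenchyme-like cells, at least 33.9-fold higher. *col7a1*, the anchoring fibril collagen, had 0.737 [0.637, 0.848] and 0.0276 [0.00569, 0.0807]. *col5a3b* had 310 UMIs and 0, and *col28a1a* 118 UMIs and 0. *vcanb* was not called, with less than a 2-fold difference, at 2.46 [2.28, 2.66] in skin-like and 1.55 [1.32, 1.80] in mesenchyme-like cells. The genes at the low end were *col10a1a* and the collagen VI genes, with *col6a1* at 1 UMI against 2.05 UMIs per 10000 and *col6a2* at 0 against 1.98. With cluster 26 alone, 23 genes were higher and 24 lower, with no share of all genes given for that group. With the matrix genes kept in the clustering only 2 were higher. The log2 ratios of *col17a1a* and *col28a1a*, with the pseudocount of 1 UMI, were then both -0.61, and that of *col7a1* -1.02. Such equal ratios can come from the pseudocount at 0 UMIs in both groups, and the UMIs behind them are not given. They are therefore not read as higher levels in mesenchyme.

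**Figure D5:**
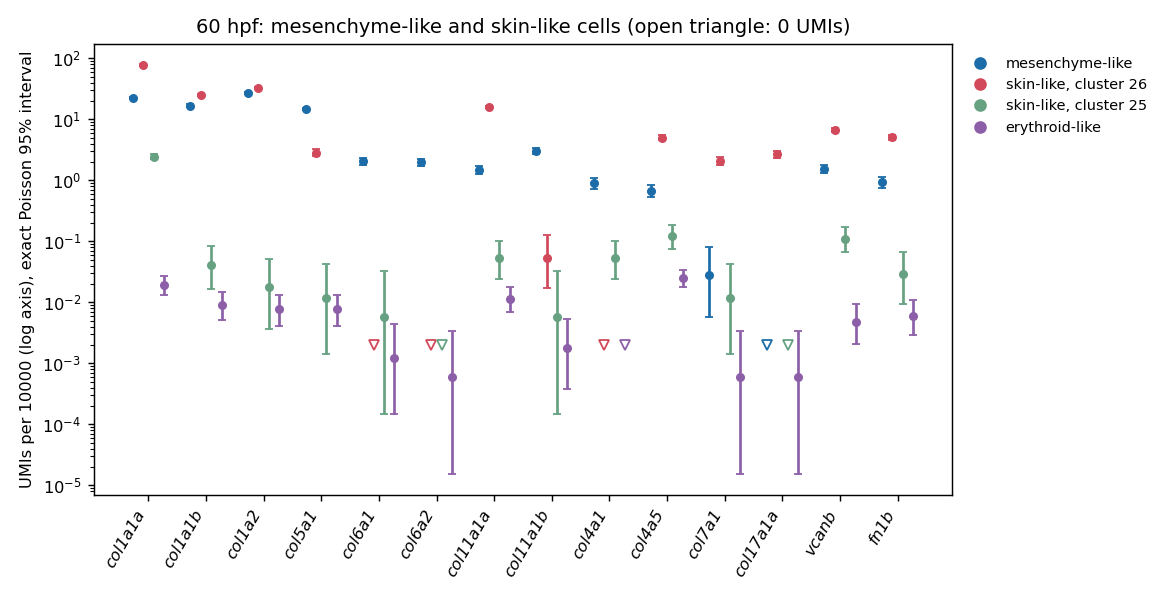
UMIs per 10000 (log axis) of 14 matrix genes in mesenchyme-like cells, both skin-like clusters and erythroid-like cells at 60 hpf, with exact Poisson 95% intervals as bars and open triangles for 0 UMIs. *col6a1*, *col6a2* and *col11a1b* are high in mesenchyme, *col7a1* and *col17a1a* in skin cluster 26, and the genes of collagen I in both.

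Chains that assemble together were set side by side within each class. Collagen IV is built from *col4a1* with *col4a2*, or from *col4a5* with *col4a6*, and each pair lies side by side in the RefSeq annotation (assembly GRCz12tu), the first on chromosome 9 and the second on chromosome 7. *col4a5* gave between 40.1% and 53.0% of the *col4a5* and *col4a6* UMIs of every class. The first pair gave 0.205% of the UMIs of all 4 genes in progenitor-like cells at 28 hpf and 1.89% at 60 hpf, and 2.36% in floor plate-like cells at 60 hpf. In mesenchyme-like cells it gave 61.1% [55.9, 66]. In neuron-like cells it gave 0.302% and 0.491%, and in skin-like cells 1.81%. Oligodendrocyte lineage-like cells had only 54 collagen IV UMIs, 44 of them of *col4a5* and *col4a6* and 3 of the first pair. A further pair, *col4a3* and *col4a4*, had 0 UMIs in mesenchyme-like cells and 0.0643 and 0.219 UMIs per 10000 in skin-like cells. These shares compare counts of 3′ tags, which need not scale alike between genes.

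Gene copies from the fish genome duplication were used unevenly. *col2a1a* gave 95.2% of the UMIs of the *col2a1* pair in the class where its share was highest and 2.27% where it was lowest, and *col5a3a* ranged from 100% to 1.27%. For *fn1a* the range was 10.8% to 96.4%, for *vcana* 0% to 94.4%, and for *col11a1a* 32.9% to 99.8%. *hapln1a* led its pair in the whole classes, with 84.4% to 99.9%. That range does not cover smaller groups such as GABAergic neuron-like cells, where *hapln1b* was high. In skin-like cells of 60 hpf *col5a3b* had 1.17 [1.04, 1.31] UMIs per 10000 and *col5a3a* 0.0151 [0.00412, 0.0387]. In floor plate-like cells of 28 hpf *col5a3a* had 1.96 [1.85, 2.08] and *col5a3b* 0.00360. Reads that fit both copies could be split or lost in the counting, which was not tested.

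Several lectican and link protein genes are neighbours in the genome, and the levels of such neighbours were set side by side. In the RefSeq annotation *vcanb* lies beside *hapln1b* on chromosome 10, and *vcana* beside *hapln1a* on chromosome 5. *vcanb* and *hapln1b* were both high in the oligodendrocyte lineage, but in GABAergic neuron-like cells of 60 hpf *hapln1b* had 1.62 and *vcanb* 0.0596. In skin-like cells of 60 hpf *vcanb* had 2.46 and *hapln1b* 0.0378. *vcana* had 0 UMIs in oligodendrocyte lineage-like cells, where *hapln1a* had 8.22. Of the 81 symbols, 80 were found in that annotation.

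Between the libraries, the matrix genes of progenitor-like cells differed in both directions. In the 60 hpf cells 16 of 48 genes were higher and 12 lower, against 19.2% and 12.1% of all genes, and the median log2 ratio was 0.10 against 0.28 for all genes. The count of higher genes was 9 with finer clusters, 7 with each library clustered alone, 10 with all variable genes in the clustering and 10 with a limit of 50 UMIs. *hapln1a* had 3.44 [3.36, 3.52] at 28 hpf and 8.66 [8.42, 8.90] at 60 hpf, *fn1a* 0.237 [0.217, 0.258] and 0.631 [0.568, 0.699], and *lama4* 0.0388 and 0.196. *col14a1a* was lower at 60 hpf, at 3.08 [3.01, 3.15] and 0.685 [0.620, 0.756]. *col7a1* had 0.149 and 0.00852, *col7a1l* 0.126 and 0.00682, and *col8a1a* 0.546 and 0.109. Radial glia-like cells made up 613 of the 719 progenitor-like cells at 60 hpf and 4 of the 2662 at 28 hpf, so the kinds of progenitor differed as well. Within pMN progenitor-like cells, 1436 at 28 hpf and 84 at 60 hpf, *col14a1a* had 2.40 and 1.05, *hapln1a* 3.13 and 4.52, and *fn1a* 0.163 and 0.105. Their make-up differed too, as the posterior-type cluster 14 supplied 290 of the 1436 and 72 of the 84. At 28 hpf *fn1a* had 0.0371 in cluster 14 and 0.199 in cluster 2. The part of this cluster mix in the values was not tested.

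In neuron-like cells 12 of 63 genes were higher at 60 hpf and 24 lower, against 18.9% and 17.4% of all genes. Without cluster 6 only 14 were lower, with no share of all genes given for that count. That cluster gave 26384 of the 42378 matrix UMIs of neuron-like cells at 28 hpf and 1042 of 28594 at 60 hpf. The neuron-like levels below include it. *tnr* had 0.158 at 28 hpf and 0.642 at 60 hpf, a log2 ratio of 2.02 [1.88, 2.16]. *col5a1* was lower, at 0.659 and 0.0887, and *col18a1a* as well, at 0.840 and 0.158. Neuronal precursor-like cells made up 1468 of the neuron-like cells at 28 hpf and 314 at 60 hpf. At 28 hpf these precursors had *col5a1* at 0.546 and *col18a1a* at 0.938, against 0.102 and 0.120 in motor neuron-like cells. The part of this mix in the stage values was not tested. The genes of collagen I were higher, with *col1a2* at 0.0164 and 0.0995, but 66.6% of its 320 UMIs at 60 hpf came from 5 cells. In motor neuron-like cells *tnr* had 0.641 [0.576, 0.712] and 0.630 [0.598, 0.664], and the intervals overlapped. Motor neuron-like cells were 702 of 3604 neuron-like cells at 28 hpf and 1761 of 3467 at 60 hpf. The 1761 leave out the 866 cells of cluster 5, of which 858 held at least 3 motor neuron markers.

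The laminin genes did not share 1 order of the classes. At 28 hpf 7 of the 12 described laminin genes had their highest level in floor plate, 4 in neuron (*lama2*, *lama4*, *lamb4* and *lamc3*) and 1 in progenitor (*lamb2*). *lamc1* had 1.35 [1.26, 1.45] UMIs per 10000 in floor plate-like, 1.29 in progenitor-like and 0.449 in neuron-like cells at 28 hpf, and 0.676 [0.473, 0.935], 0.842 [0.770, 0.920] and 0.129 at 60 hpf. *lamb2l*, a laminin beta chain gene beside *lamb2* on chromosome 23, had 0.826, 0.571 and 0.170 at 28 hpf and 0.619, 0.513 and 0.0728 at 60 hpf. *lama1*, the alpha chain of early basement membranes, had 0.310, 0.211 and 0.0683 at 28 hpf and 0.300, 0.256 and 0.0445 at 60 hpf. For *lamc1* and *lama1* the floor plate and progenitor intervals of 60 hpf overlapped. *lamb1b* had 0.153 [0.123, 0.189] in progenitor-like cells at 60 hpf, where 89 of its 90 UMIs lay in cluster 22, and 0.350 in mesenchyme-like cells. *lama4* had its highest level, 1.09 [0.899, 1.30], in mesenchyme-like cells. *fn1a* and *fn1b* code for fibronectins and divided by class at 60 hpf. *fn1a* had 0.957 in floor plate-like, 0.631 in progenitor-like and 0.219 in skin-like cells, and *fn1b* had 0.619, 0.0239 and 1.81.

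A few further genes had patterns of their own. *tnc*, tenascin C, had 1.85 [1.74, 1.97] and 2.93 [2.49, 3.43] in floor plate-like cells at 28 and 60 hpf, 0.769 and 1.17 in progenitor-like cells, and 2.02 in mesenchyme-like cells of 60 hpf. *col12a1b* had 2.55 [2.26, 2.87] in mesenchyme-like and 0.684 in skin-like cells of 60 hpf, and at most 0.0938 in a neural class. *col16a1*, a fibril-coating collagen that lies beside *col9a2* on chromosome 19, had 1.02 in mesenchyme-like, 0.688 in skin-like and 0.544 in floor plate-like cells of 60 hpf. *col15a1b*, a relative of collagen XVIII, had 0.230 in floor plate-like cells of 28 hpf and 0.111 in progenitor-like cells of 60 hpf. In erythroid-like cells *col15a1b* had 0.0481 and 0.0440, above its level of 0.0205 in neuron-like cells of 60 hpf, so its low values cannot be told from background. The described genes that are not named here are part of the counts given for each comparison and class.

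Genes that act on the matrix followed the collagens in part. Of a list of enzymes and chaperones that process collagen, 15 of 19 tested were higher and 0 lower in floor plate-like than in progenitor-like cells at 28 hpf, with a median log2 ratio of 1.59. In mesenchyme over neural cells 24 of 24 were higher, with a median of 3.18. In neuron over progenitor 0 of 20 were higher and 8 lower at 28 hpf, and 1 of 19 higher and 14 lower at 60 hpf. In the oligodendrocyte lineage over progenitor 0 of 16 were higher and 11 lower, with a median of -1.91. Matrix receptors, mainly integrins, gave 1 higher and 9 lower of 14 in that last comparison, and basement membrane partners such as nidogens 0 higher and 3 lower of 5. In mesenchyme over neural cells 9 of 20 receptors were higher and 3 lower, and in floor plate over progenitor at 28 hpf 3 of 17 were higher and 0 lower. Of the matrix proteases and their inhibitors, 8 of 13 were higher and 4 lower in mesenchyme over neural cells, and of the other proteoglycans and hyaluronan synthases 6 of 9 were higher and 2 lower. For all genes, 8.25% were higher and 6.03% lower in floor plate over progenitor at 28 hpf, with a median log2 ratio of 0.09. In mesenchyme over neural cells the shares were 23.3% and 28.6%, with a median of -0.20. For neuron over progenitor they were 26.3% and 16.6% at 28 hpf and 28.1% and 19.6% at 60 hpf. For the oligodendrocyte lineage over progenitor they were 18.7% and 18.8%, with a median of 0.25.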

How the data were processed

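Fluorescent cells of 2 libraries (28 and 60 hpf) were captured with the 10x Genomics 3′ V3 kit. The authors made the deposited counts, raw UMI counts per gene and cell, with Cell Ranger (5.0.0 per the file headers). The submitters' processing notes name GRCz11 and Scanpy. The gene annotation is not given in the sources used here. The matrices held 10124 and 7905 barcodes with 95108584 and 70432500 UMIs, and 24 barcodes occurred in both (16 among kept cells). A further stage, 42 hpf, was not analysed here.

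Cells with at least 1000 genes were kept and clustered together in scanpy 1.11.5 (anndata 0.12.19, igraph 0.11.9, Python 3.11.15): counts scaled to 10000, log transformed, 4000 variable genes without matrix genes, scaled values capped at 10, 50 components, 15 neighbours, Louvain resolution 1, seed 7. Clusters were named from 19 marker lists by the highest median log2 fold, at least 1, with 3 markers in at least 5% of cells, and stayed unnamed where the 10 leading genes held more markers of another class. The minimum that this last rule first set on such markers was dropped after the clusters were seen, which left cluster 11 unnamed, and cluster 19 was unnamed as well. Doublets (806 cells, 5.80%) were predicted from a simulated-doublet score at 0.8% per 1000 cells and kept, except in 1 alternative.

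Levels have exact Poisson, ratios exact conditional and shares exact binomial 95% intervals. Calls used 2-fold with a pseudocount of 1 UMI and at least 20 UMIs. Members with at least 500 UMIs are described by class, and up to 5 members at each end of a comparison with at least 100 UMIs are named. The collagen IV, collagen I and gene copy pairs were added to these. Shares used cells thinned to 2000 UMIs. The members, marker lists and 5 matrix lists (96 of 101 genes found) were chosen with earlier results of these data known. Alternatives were 500 genes per cell, doublets removed, resolution 2, each library clustered alone, all variable genes, 50 UMIs, a mean over cells, totals without hemoglobin and mitochondrial genes, and thinning to 1000 UMIs or none. The rule of size was tested on simulated data of neuron over progenitor at 28 hpf, where it found 200 of 200 genes changed 3-fold and called 101 of 16807 unchanged genes. Those counts were Poisson at the depth of that comparison, and the changed genes had at least 50 expected UMIs. The test therefore does not cover smaller groups or genes whose UMIs lie in few cells. Other steps used numpy 2.4.6, pandas 2.3.3, scipy 1.17.1 and matplotlib 3.10.9.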

Additional observations from a re-analysis of the deposited data

Results flagged for a closer look

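Outside the 6 classes, cluster 29 held 12 cells of 60 hpf that resembled notochord, in which 10 cells had at least 3 of 6 notochord markers. Several matrix genes had levels there above those of every class, in UMIs per 10000. *col2a1a* had 425 [415, 435], *col9a1b* 172 [165, 178] and *col11a1a* 133 [128, 139]. *col9a2* had 94.7, *col9a3* 54.0 and *col11a2* 51.6. *col2a1b* had 13.9, *fn1b* 8.85, *col8a1a* 6.09 and *col27a1b* 1.44. Among the 6 classes the highest level of *col2a1a* was 14.5 and that of *col9a1b* 0.457. In medial floor plate-like cells of 28 hpf, a part of 1 class, they were 54.0 and 1.93. These cells gave 15375 matrix UMIs, and no comparison of the report used them.

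A few genes went opposite ways under the same contrast, on the log2 scale with the pseudocount, and these differences were not tested. For neuron over progenitor, *bcan* had 2.82 [2.04, 3.97] at 28 hpf and -2.20 [-2.79, -1.60] at 60 hpf, and *lama4* 1.52 [1.19, 1.89] and -1.51 [-1.84, -1.17]. For 60 over 28 hpf, *bcan* had 3.87 [2.99, 5.06] in progenitor-like and -1.15 [-1.65, -0.69] in neuron-like cells, and *col9a3* 2.47 [1.90, 3.08] and -1.52 [-2.16, -0.96]. The *bcan* contrast rests on 11 UMIs in progenitor-like cells of 28 hpf and 46 at 60 hpf.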

How the results depend on the processing

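Of the counts set against an alternative, 159 stayed within 1.5 times and 23 moved, and of the log2 ratios and shares 526 held, 225 moved and 9 turned direction. Counts under an alternative are given without a share of all genes of their own. With all variable genes in the clustering, 2 genes were higher in skin than in mesenchyme (18 in the report), and *col17a1a* turned to -0.61, *col28a1a* to -0.61 and *col7a1* to -1.02. These 3 values hold the pseudocount of 1 UMI and are not read as higher levels in mesenchyme. For floor plate over progenitor at 28 hpf, 1 gene in place of 0 was lower with doublets removed and with a mean over cells. At 60 hpf 2 in place of 4 were lower with 500 genes per cell, doublets removed, all variable genes or 50 UMIs. For neuron over progenitor at 60 hpf 9 in place of 14 were higher with each library clustered alone or with 50 UMIs, and *lamb1b* (-4.62 in the main setting) had 0.12 with 500 genes, 1.65 at resolution 2 and 1.20 with each library alone. For radial glia over other progenitors, in place of 10 higher, 5 were found with 500 genes, 4 at resolution 2, 3 with all variable genes and 6 with 50 UMIs. In place of 3 lower, 5 were found with 500 genes, resolution 2, all variable genes or a mean over cells, and 0 with each library alone, where *col14a1a* had 0.10. For the oligodendrocyte lineage over progenitor *col9a3* had -0.72 at resolution 2 and -0.51 with each library alone. For 60 over 28 hpf in progenitors, in place of 16 higher, 9 were found at resolution 2, 7 with each library alone, 10 with all variable genes and 10 with 50 UMIs. In neurons 14 in place of 24 were lower without cluster 6, an alternative chosen after the data were seen, as were skin cluster 26 alone and mesenchyme without cells holding other markers. The cause of these shifts was not tested. No paired analysis was possible because each stage had 1 library.

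Depth limits what can be said of rare groups. Mesenchyme-like and skin-like cells of 28 hpf were too few to compare, 11 of the 83 genes had under 50 UMIs over the classes, and the embryos of a library cannot be told apart.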
